A study of Ailuropoda melanoleuca with 25 samples.

Results

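The comparison of the libraries labelled BACL-CHIR99021 with those labelled BACL control was examined in 4 of the 25 RNA-seq libraries of a giant panda (Ailuropoda melanoleuca) reprogramming study. The libraries were taken by sample title, with 2 replicates in each group. In the study, primary fibroblasts (PF) were reprogrammed to induced pluripotent stem cells (GPiPSC) with episomal vectors, which are not meant to integrate into the genome. All 25 libraries, these 4 included, carry primary fibroblasts as their source in the labels. The submitters' sample codes begin with K2-BCAL in the control group and with K2-CHIR in the other. The labels give no day, no dose, no animal, and no account of what the letters BACL stand for. They do not say how the hyphen in BACL-CHIR99021 is to be read, and no other source used here says whether CHIR99021 was added to the medium or left out of it. Each difference below is therefore described by the group labels alone, as BACL-CHIR99021 minus BACL control. Other libraries used for comparison were BACL LB GPiPSC (2 libraries), LB GPiPSC (3), XR GPiPSC (2), LB PF (2), XR PF (2), stage I day 8 and day 24, stage II day 8, and control and A83-01 at day 16 (2 each).

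CHIR99021 is a small molecule that inhibits the kinase GSK-3. In the canonical WNT pathway GSK-3 marks beta-catenin for degradation, so an inhibitor of it stabilises beta-catenin, which enters the nucleus and acts with TCF and LEF factors on target genes. In cultures of pluripotent cells this input is known to favour self-renewal in some media and to lead towards mesoderm and endoderm in others. Expression was listed for 22924 gene models under identifiers that the files pair with no gene name, and 0 of these identifiers were found among the RefSeq genes of assembly ASM200744v3. WNT target, pluripotency, fibroblast, primitive streak and neural genes (113 symbols) could therefore not be looked up, and the labelled cell type could not be checked against its markers. The changes are described by groups of models, with 4 identifiers as examples.

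Total estimated counts were 13755791 and 13657063 in the BACL control libraries (replicates 1 and 2) and 12300668 and 13244921 in the BACL-CHIR99021 libraries. Levels are given as CPM, a library's counts brought to a common total and scaled for library composition (TMM). A count of 3 reads corresponded to 0.176 to 0.190 CPM in these 4 libraries. The replicates of a group lay close together. A chi-square of their counts, divided by its degrees of freedom, was 1.59 for BACL control and 1.52 for BACL-CHIR99021, where sampling noise alone would give 1. Between replicates 1 and 2 of the other groups it ran from 1.20 in BACL LB GPiPSC to 112 in XR PF. The labels do not call the replicates separate cultures, and p-values rest on the spread between libraries alone, which may be technical. Across models, log2 CPM correlated at 0.995 between the controls, at 0.994 between the BACL-CHIR99021 libraries and at 0.935 to 0.937 between the groups. These correlations are across models, which are not independent. LB GPiPSC replicate 3, used below, stood apart from its group: it correlated at 0.962 with the other LB GPiPSC libraries and at 0.981 with XR GPiPSC.

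More models were higher than lower in BACL-CHIR99021, and the higher ones differed by more. Of 17225 models tested, 2010 were higher (11.7%) and 763 lower (4.43%) at an adjusted p under 0.05 in edgeR's quasi-likelihood test (p adjusted over all models by Benjamini-Hochberg), or 16.1% in both directions. Over 2-fold higher were 1866 models (10.8%) and over 2-fold lower 535 (3.11%). These 2 lists are called the raised and the lowered models below. Of the raised models, 1273 had more than 3 counts in each control library. Among these, 642 were up to 4-fold higher, 381 were 4- to 8-fold, 210 were 8- to 32-fold and 40 over 32-fold. Of the 478 lowered models with more than 3 counts in each BACL-CHIR99021 library, 360 were up to 4-fold lower, 89 were 4- to 8-fold, 27 were 8- to 32-fold and 2 over 32-fold. With the remaining models set at a floor of 3 counts per library, the median change was 4.81-fold for the raised and 2.95-fold for the lowered models. In these bulk libraries, fewer cells of a kind and less RNA per cell cannot be told apart.

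The number of calls rests on the spread that is assumed. The main test pooled the spread of all 12 groups, most of which vary more than these. With only the 4 libraries in the fit, 10609 of 14784 models were called, 5443 of them higher and 5166 lower, and 3340 were over 2-fold different (2477 higher and 863 lower). Of the raised models 1761, and of the lowered models 503, were also called over 2-fold in the same direction there, and no call of either fit had the opposite direction in the other. Without 1 library the pooled test made 1319 or 1332 calls (BACL control replicate 1 or 2 left out) and 1570 or 1539 (BACL-CHIR99021 replicate 1 or 2). Of these, 1285, 1305, 1543 and 1514 were over 2-fold, in the same order. The excess of raised models was larger on the TPM scale, where limma-trend placed 82.2% (pseudocount 1) and 85.3% (pseudocount 0.1) of calls on the higher side against 72.5% in the main test. That scale, which does not correct for library composition, put the median over all models at a log2 fold change of 0.15 and 0.23, from 0.

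**Figure D1:**
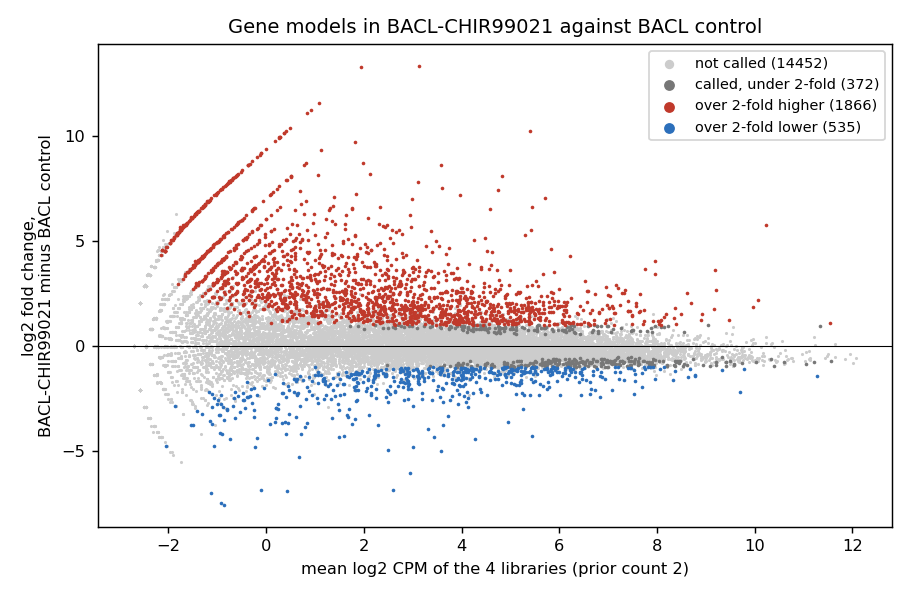
Log2 fold change of each of 17225 gene models (vertical axis, BACL-CHIR99021 minus BACL control) against its mean log2 CPM over the 4 libraries (horizontal axis). Red points are the 1866 models called over 2-fold higher, blue points the 535 over 2-fold lower, dark grey the 372 called at under 2-fold and light grey the 14452 not called; the lines of red points at the low end are models with few or no counts in the controls, whose fitted fold changes are not measured sizes.

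The raised models held a larger share of the counts in BACL-CHIR99021 than in the control, and the lowered ones a smaller share. The raised models held 2.36% and 2.40% of all counts in BACL control replicates 1 and 2, and 11.4% and 11.2% in BACL-CHIR99021 replicates 1 and 2. The lowered models held 4.28% and 4.24% of counts in the controls and 1.71% and 1.70% in BACL-CHIR99021. These shares were computed for lists chosen in the same libraries and describe them only. Models over 1 CPM numbered 13047 and 13048 in the controls and 13879 and 13792 in BACL-CHIR99021.

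A set of models went from almost no counts to a clear level. With at most 3 counts in each control library and at least 1 CPM in each BACL-CHIR99021 library there were 238 models, and 237 of them were called. The mean of the 238 in BACL-CHIR99021 ran from 1.10 to 418 CPM with a median of 2.40, and 21 of the 238 reached at least 10 CPM in both libraries. Of these 238, 60 had 0 counts in both controls, and these 60 ran from 1.12 to 96.3 CPM with a median of 2.56. Above 1 CPM on average in LB or XR PF were 120 of the 238, above 1 CPM in LB or XR GPiPSC 78, and above 1 CPM in BACL LB GPiPSC 4. For PF and for LB or XR GPiPSC, the mean of either group sufficed, an easier mark than 1 CPM in a single library. In single libraries, 75.7% to 78.6% of all tested models were over 1 CPM in PF and 78.3% to 79.8% in LB or XR GPiPSC. In BACL LB GPiPSC these were 74.9% and 75.3%. In 80 of the 238, BACL-CHIR99021 had the highest mean of the 12 groups, a larger share than the 5.45% of all tested models. That count and the 237 calls follow in part from the levels that chose these models. The reverse pattern, at most 3 counts in each BACL-CHIR99021 library and at least 1 CPM in each control, was seen in 14 models, which stood at 1.15 to 8.30 CPM in the controls.

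The 2 raised examples, which had the largest fold changes among called models with at least 10 counts in each control library, a mean of at least 10 CPM in BACL-CHIR99021, no overlap and a call kept without each library, were both abundant in PF. The model evm.model.HIC_ASM_7.203 (735 bases) had 1.24 and 1.06 CPM in BACL control replicates 1 and 2 and 1384 and 1365 CPM in BACL-CHIR99021 replicates 1 and 2. The groups did not overlap, and the log2 fold change was 10.21 ± 0.59 (SE; adjusted p = 2.97e-09, edgeR). On the TPM scale, which is per length, its level in the BACL-CHIR99021 libraries was 2012 and 1958 TPM. Its mean CPM was 593 ± 138 for LB PF and 6739 ± 3247 for XR PF, and 5495 ± 664 and 3828 ± 528 at day 8 of stages I and II (SD over 2 libraries). In established GPiPSC it was low, at 3.38 ± 1.40 CPM in LB GPiPSC (SD, n = 3), 11.9 ± 1.11 in XR GPiPSC and 1.33 ± 0.208 in BACL LB GPiPSC (SD, n = 2 each).

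The model evm.model.HIC_ASM_0.1427 (4104 bases) showed the same contrast between PF and GPiPSC. It had 1.49 and 1.80 CPM in BACL control replicates 1 and 2 and 455 and 439 CPM in BACL-CHIR99021 replicates 1 and 2. Both BACL-CHIR99021 libraries lay far above both controls, with a log2 fold change of 8.07 ± 0.33 (SE; adjusted p = 1.65e-11, edgeR). Per length its level was 71.6 and 69.1 TPM in the BACL-CHIR99021 libraries, below that of the former model. The PF libraries averaged 8864 ± 2348 CPM (LB) and 20380 ± 254 CPM (XR; SD over 2 libraries), and the model was no higher than 3.41 CPM in any LB, XR or BACL LB GPiPSC library. BACL-CHIR99021 thus stood between these GPiPSC and the PF in this model.

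Both lowered examples were low but still counted in BACL-CHIR99021, and their levels in the other groups differed from each other. The model evm.model.HIC_ASM_3.1518 (849 bases) had 60.6 and 55.6 CPM in BACL control replicates 1 and 2 and 0.759 and 0.996 CPM in BACL-CHIR99021 replicates 1 and 2 (12 and 17 counts), a log2 fold change of -6.03 ± 0.48 (SE; adjusted p = 1.03e-07, edgeR). It was at 26.7 ± 1.42 CPM in BACL LB GPiPSC and at 2.07 ± 0.286 in XR GPiPSC (SD, n = 2 each), and at 2.11 ± 0.949 in LB GPiPSC (SD, n = 3). All 4 libraries of the BACL control and BACL LB GPiPSC groups lay above all 19 others outside BACL-CHIR99021, of which LB PF replicate 1 was the highest at 16.4 CPM. The model evm.model.HIC_ASM_2.534 (657 bases) had 65.1 and 65.6 CPM in BACL control replicates 1 and 2 and 1.90 and 2.23 CPM in BACL-CHIR99021 replicates 1 and 2 (30 and 38 counts). Its log2 fold change was -4.98 ± 0.49 (SE; adjusted p = 1.37e-06, edgeR). It was present in all GPiPSC groups, at 100.4 ± 34.2 CPM in LB GPiPSC (SD, n = 3), 69.6 ± 2.56 in XR GPiPSC and 56.8 ± 0.179 in BACL LB GPiPSC (SD, n = 2 each), and at most at 0.371 CPM in any PF library. The estimated counts of these 4 models were whole numbers (within 0.001) in the 4 libraries, and none had the same counts as another model.

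**Figure D2:**
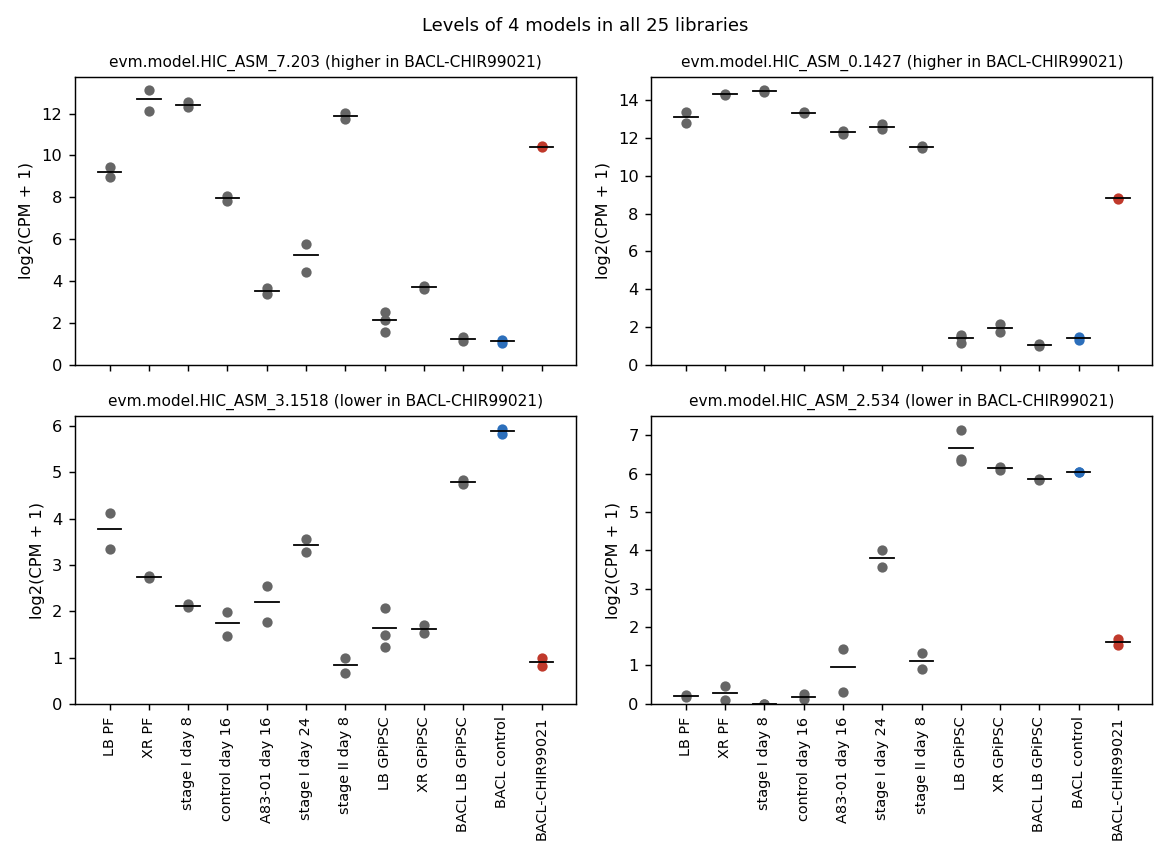
Levels of the 2 raised and 2 lowered example models in all 25 libraries, as log2(CPM + 1), with groups along the horizontal axis, 1 point per library and a bar at the group mean. BACL control is blue and BACL-CHIR99021 red: the upper models stand near the GPiPSC groups in BACL control (1.24 and 1.06, and 1.49 and 1.80 CPM) and at 1384 and 1365, and 455 and 439 CPM in BACL-CHIR99021.

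The median level of the raised models was higher in PF than in GPiPSC libraries. Their median log2 CPM was 0.48 and 0.41 in the controls and 3.12 and 3.11 in BACL-CHIR99021, which the choice of the list sets. In libraries that took no part in the choice it was 2.72 to 3.33 in the 4 PF libraries, 3.08 and 3.28 at stage I day 8, 3.43 and 3.45 in control day 16, and 2.57 and 2.63 at stage II day 8. With A83-01 at day 16 it was 3.40 and 3.35, and at stage I day 24 2.67 and 3.14. In GPiPSC it was 1.44 to 1.68 for LB, 1.86 and 1.89 for XR, and 0.58 and 0.61 for BACL LB. Over all models tested the median was 2.99 to 3.83 across the 25 libraries. For the lowered models the medians were 4.25 and 4.18 in the controls and 2.55 and 2.49 in BACL-CHIR99021. They were 3.51 to 3.87 in the 7 LB, XR and BACL LB GPiPSC libraries, 2.05 to 2.37 in the PF and 2.26 and 2.45 at stage I day 8. At stage I day 24 they were 3.515 and 3.419, near the lowest of these GPiPSC libraries. They were 2.96 and 2.85 at stage II day 8, 2.49 and 2.39 in control day 16, and 2.93 and 2.70 with A83-01. BACL control correlated with LB, XR and BACL LB GPiPSC at 0.945 to 0.967 and with PF at 0.698 to 0.712. BACL-CHIR99021 correlated with these GPiPSC at 0.924 to 0.940 and with PF at 0.728 to 0.755.

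**Figure D3:**
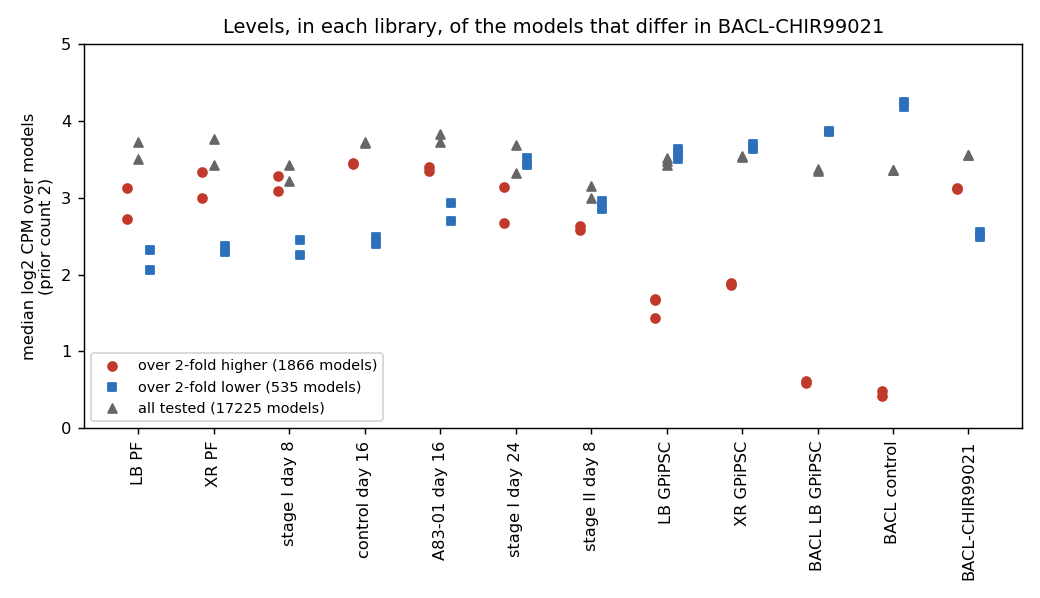
Median log2 CPM over the raised models (red circles, 1866), the lowered models (blue squares, 535) and all models tested (grey triangles, 17225) in each of the 25 libraries, with the groups along the horizontal axis. The raised models lie at 3.12 and 3.11 in BACL-CHIR99021, at 0.48 and 0.41 in BACL control and at 2.72 to 3.33 in the PF libraries; like medians do not mean that single models were at like levels.

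The same models were set beside 2 comparisons of GPiPSC with PF that share no library with these 4. Among the raised models, 925 (49.6%) were lower and 462 (24.8%) higher in LB GPiPSC than in LB PF, where 28.9% of all tested models were lower and 28.5% higher. In XR GPiPSC minus XR PF, 948 (50.8%) were lower and 442 (23.7%) higher, against 28.9% and 27% of all tested models. Their median log2 fold change was -0.94 in LB and -1.21 in XR, and that of all models 0.00 in both. Of the lowered models, 320 (59.8%) were higher and 75 (14%) lower in LB GPiPSC, and 299 (55.9%) were higher and 95 (17.8%) lower in XR GPiPSC, with medians of 1.30 and 1.16. Of all models over 2-fold changed, 22.4% changed the same way and 51.9% the opposite way in LB GPiPSC minus LB PF, where 57.4% of all tested models were called (55.9% in XR). Without LB GPiPSC replicate 3 the shares were 21.6% and 50.5%.

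**Figure D4:**
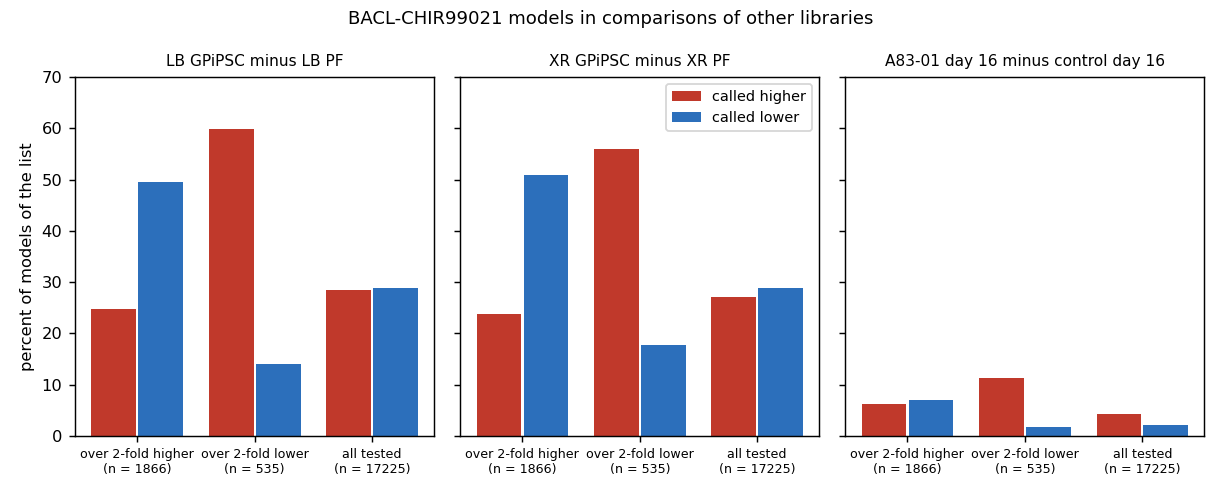
Percent of the raised models (n = 1866), the lowered models (n = 535) and all models tested (n = 17225) that were called higher (red) or lower (blue) in LB GPiPSC minus LB PF, XR GPiPSC minus XR PF and A83-01 minus control at day 16. In the GPiPSC comparisons 49.6% and 50.8% of the raised models are lower, against 28.9% of all models, and 59.8% and 55.9% of the lowered models are higher.

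Read the other way, most models that separate fibroblasts from GPiPSC did not pass the main test in BACL-CHIR99021. With only the 4 libraries in the fit, most of those tested did pass. Of the PF-high models that passed, more rose than fell. PF-high models, called over 2-fold lower than PF in LB GPiPSC (24.6% of all models) and also in XR GPiPSC (25.6%), numbered 3128. In BACL-CHIR99021 817 of them (26.1%) rose, 52 (1.66%) fell and 2259 did not pass. Their median log2 fold change was 0.62. Among all tested models 11.7% rose, 4.43% fell and the median was 0.00. With only the 4 libraries in the fit, 1534 of the 2347 PF-high models tested rose and 299 fell. Of all 14784 models in that fit, 5443 rose and 5166 fell. PF-high models held 5.74% and 5.77% of counts in the controls and 11.8% and 11.7% in BACL-CHIR99021. Fewer PF-high models passed when 1 of the 4 libraries was left out. Their median log2 fold change was then 0.62 or 0.57 (without BACL control replicate 1 or 2) and 0.56 or 0.54 (without BACL-CHIR99021 replicate 1 or 2). That of all models stayed at 0.00. GPiPSC-high models, called over 2-fold higher than PF in LB GPiPSC (23.8% of all models) and also in XR GPiPSC (23.5%), numbered 2847. Of these, 348 (12.2%) rose, 284 (9.98%) fell and 2215 did not pass. Their median log2 fold change was -0.20. On the TPM scale it was 0.03 (pseudocount 1) and 0.05 (pseudocount 0.1) by limma-trend, below the medians of 0.15 and 0.23 over all models. Fewer GPiPSC-high models, too, passed with 1 of the 4 libraries left out. Their edgeR median was then -0.22 or -0.21 (without BACL control replicate 1 or 2) and -0.23 or -0.22 (without BACL-CHIR99021 replicate 1 or 2). With only the 4 libraries in the fit, 808 of the 2634 GPiPSC-high models tested rose and 1205 fell, beside 5443 and 5166 of all 14784 models. In both fits the GPiPSC-high models thus leaned lower than all models did, which in the main test were 11.7% higher and 4.43% lower. GPiPSC-high models held 15.98% and 16.04% of counts in the controls, and 14.7% and 14.6% in BACL-CHIR99021. With both lists made again without LB GPiPSC replicate 3, 812 of 3000 PF-high models rose and 356 of 2756 GPiPSC-high models rose and 330 fell.

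The raised models fall into 3 groups by these lists. Of them 754 (40.4%) were PF-high, 340 (18.2%) GPiPSC-high and 772 (41.4%) neither. Of all tested models 18.2% were PF-high, 16.5% GPiPSC-high and 65.3% neither, so the GPiPSC-high share was close to that of all models. The PF-high ones reached part of the fibroblast level, with a median of 23.5% of the mean over the 4 PF libraries (quartiles 7.95% and 43.4%), against 3.22% in BACL control, and 49 of the 754 exceeded the PF mean. By group means, their median was 1.43 CPM in BACL control, 10.03 in BACL-CHIR99021, 46.4 in LB PF and 60.1 in XR PF. These percents and levels follow in part from the choice of the models, which was made in the same libraries. The 340 GPiPSC-high ones had a median of 1.65 CPM in BACL control, 10.6 in BACL-CHIR99021, 5.59 in LB GPiPSC, 6.05 in XR GPiPSC and 2.03 in BACL LB GPiPSC, and 155 of them were highest in BACL-CHIR99021 of the 12 groups. The 772 others had a median of 0.823 CPM in BACL control and 6.43 in BACL-CHIR99021, and of 2.51 to 5.61 CPM in the groups other than the BACL ones. Of all raised models 404 (21.7%) were highest in BACL-CHIR99021, 303 (16.2%) at stage I day 8 and 260 (13.9%) in XR PF. In control day 16 228 (12.2%) were highest, and in LB PF 196 (10.5%). Over all tested models these shares were 5.45%, 13.1%, 6.50%, 8.80% and 11.7%. The share of stage I day 8 was near its background, and that of LB PF was not above its own. Among the lowered models 231 (43.2%) were GPiPSC-high, 47 (8.79%) PF-high and 257 (48%) neither, and 175 (32.7%) were highest in BACL control, against 8.12% of all tested models. The shares highest in BACL-CHIR99021 and in BACL control follow in part from the choice of the lists. So do the levels given for the 3 groups of raised models.

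BACL LB GPiPSC, the other BACL group, lay on the side of the control for most of these models. On the log2 CPM scale it was nearer to BACL control than to BACL-CHIR99021 in 1600 of the 1866 raised models (85.7%) and in 373 of the 535 lowered ones (69.7%). LB GPiPSC was nearer to the control in 1090 raised (58.4%) and 301 lowered models (56.3%), and XR GPiPSC in 935 (50.1%) and 323 (60.4%). LB PF was nearer to BACL-CHIR99021 in 1095 raised and 403 lowered models, and XR PF in 1171 and 380. This side was not particular to PF. Control day 16 was nearer to BACL-CHIR99021 in 1306 raised and 389 lowered models, and A83-01 day 16 in 1337 and 379. For stage I day 8 the counts were 1191 and 361, for stage I day 24 1172 and 276, and for stage II day 8 1178 and 284. All these positions are set against the 2 groups that chose the models.

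A83-01, an inhibitor of TGF-beta type I receptor kinases, was the other small molecule named in a group that had its own control, at day 16. The labels give no day for the BACL libraries, so the molecule and the state of the cells cannot be told apart in what follows. They also do not say whether CHIR99021 was added or left out. Like and opposite directions are therefore those of the group labels, not of the molecules. With A83-01 4.19% of models were higher and 2.04% lower, or 6.22% in both directions. Of the models raised in BACL-CHIR99021, 116 (6.22%) were higher and 129 (6.91%) lower with A83-01, and their median was -0.08 on the log2 scale, where that of all models was 0.04. Of the lowered models 60 (11.2%) were higher and 9 (1.68%) lower, with a median of 0.25. The model evm.model.HIC_ASM_7.203, which rose in BACL-CHIR99021, had a log2 fold change of -4.55 ± 0.45 with A83-01 (SE; adjusted p = 1.11e-05, edgeR). For evm.model.HIC_ASM_0.1427, which also rose, it was -1.04 ± 0.24 (SE; adjusted p = 0.0109, edgeR). The difference between both effects was tested directly, and 2450 models passed (14.2%), 1421 with a higher value for BACL-CHIR99021 (8.25%) and 1029 with a lower one (5.97%). With only the libraries compared in the fit the balance turned, with 3331 higher and 3822 lower, and by limma-trend on the TPM scale (pseudocount 1) it was 1647 higher and 705 lower. Among the raised models 1150 passed with a higher value and 9 with a lower one, and among the lowered models 316 passed with a lower value. These last counts share the libraries that chose the models and describe them only. Without BACL control replicate 1 or 2, the difference test made 1500 or 1495 calls, and without BACL-CHIR99021 replicate 1 or 2 it made 1520 or 1527. Without control day 16 replicate 1 or 2 it made 1565 or 1519, and without A83-01 replicate 1 it made 1610.

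The changes were spread over the assembly. On the 21 large scaffolds, named HIC_ASM, the share of tested models that were raised ran from 6.77% (HIC_ASM_19) to 14.2% (HIC_ASM_1), and the share lowered from 2.34% (HIC_ASM_17) to 4.40% (HIC_ASM_14). The median log2 fold change of a scaffold ran from -0.09 (HIC_ASM_19) to 0.07 (HIC_ASM_9). In windows of 51 neighbouring models with a mean of at least 8 CPM, the median stayed between -0.45 and 0.19 on every one of these scaffolds. Raised models often lay next to each other: 831 of 1866 (44.5%) had a raised model as the neighbouring tested model, where 19.9% of all tested models had one. For the lowered models the figures were 125 of 535 (23.4%) against 6.01%. The longest run of raised models in a row was 6 and that of lowered models 5, and runs of 3 or more numbered 95 and 9. Neighbouring models can be copies of each other that share reads, and the part of this in the neighbours was not tested. Over whole lists, estimated counts were not whole (by over 0.001) in at least 1 of the 4 libraries for 3.86% of the raised, 3.55% of the lowered and 6.03% of all models, and 6 raised models had the same counts as another model in every library.

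**Figure D5:**
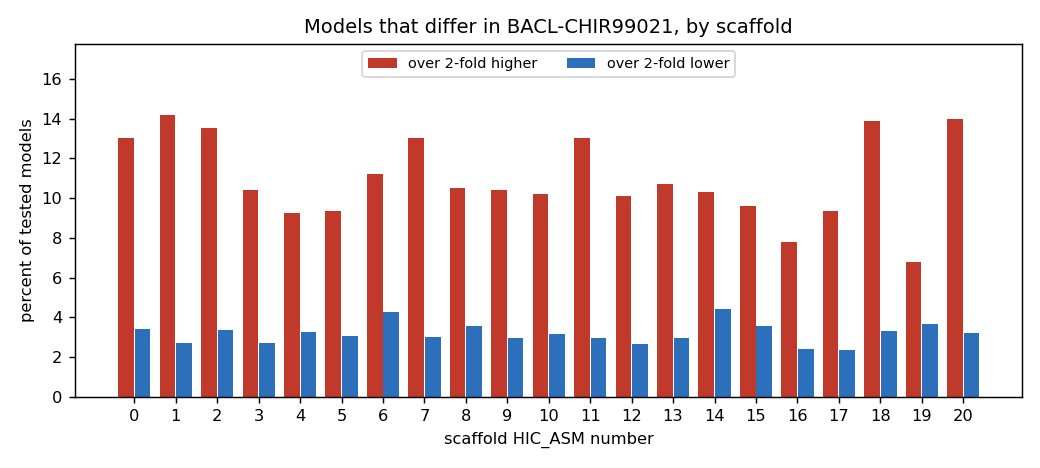
Percent of tested models raised (red) or lowered (blue) over 2-fold in BACL-CHIR99021 on each of the 21 HIC_ASM scaffolds (horizontal axis, scaffold number). The raised share lies between 6.77% and 14.2% and the lowered share between 2.34% and 4.40%.

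Longer models were raised more often. In the shortest quartile of tested models (126 to 684 bases) 8.83% were raised and 2.60% lowered, and in the longest quartile (1908 to 20340 bases) 13.5% and 2.23%. The median length was 1306.5 bases for raised, 1164 for lowered and 1171 for all tested models. Longer models collect more reads at the same level, and the part of this in the calls was not tested. By mean level over the 25 libraries, 12.3% of the lowest quartile and 9.43% of the highest quartile were raised.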

How the data were processed

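RNA libraries were made with an NEBNext Ultra kit from 2 μg of total RNA, per the labels' protocols, and the submitters' processing notes name kallisto. For its version, its index and the build: not given in the sources used here. Per the file headers, the 25 deposited tables hold 1 line for each gene model with estimated counts, TPM and 2 lengths. The deposited estimated counts were rounded before testing. Deposited TPM values, scaled by the authors' tool to effective length and library total, served for per-length levels and alternatives. Of the lengths of tested models, 92.6% are multiples of 3, so most may be coding lengths.

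Sample titles gave each library's group and replicate number. One model covered 12 groups in 25 libraries (13 residual degrees of freedom). Models were kept by filterByExpr, scaled by TMM and tested with edgeR 4.0.16 (R 4.3.3), by robust quasi-likelihood F tests with Benjamini-Hochberg adjustment over 17225 models. A call is an adjusted p under 0.05. SEs come from the F statistic, and log2 CPM uses a prior count of 2. The step was also run on simulated counts. There as many models were made higher as lower, unlike the balance seen here, which that run does not address. Alternatives used DESeq2 1.42.0 and limma 3.58.1, among others given at the end.

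Members, lists and tests were chosen with earlier results of these data known. The named models are, per direction, the 2 largest fold changes among called models with at least 10 counts in each library of the lower group, a mean of at least 10 CPM in the higher group, no overlap between groups, and a call kept without each library in turn. The lists of WNT pathway, TGF-beta target, pluripotency, primitive streak, neural and fibroblast symbols matched 0 models.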

Additional observations from a re-analysis of the deposited data

Results flagged for a closer look

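The effects of BACL-CHIR99021 and of A83-01, each against its own control, differed in a direct test in 2450 models. The 4 example models were chosen for large effects in BACL-CHIR99021, which this test uses again, so their passing is no independent support. For them, the BACL-CHIR99021 effect minus the A83-01 effect was 14.76 ± 0.74 (log2, SE; adjusted p = 3.12e-10, edgeR) for evm.model.HIC_ASM_7.203 and 9.12 ± 0.40 (adjusted p = 5.22e-11) for evm.model.HIC_ASM_0.1427. It was -6.66 ± 0.62 (adjusted p = 9.42e-07, edgeR) for evm.model.HIC_ASM_3.1518 and -7.71 ± 0.91 (adjusted p = 1.58e-05, edgeR) for evm.model.HIC_ASM_2.534. The A83-01 libraries are from day 16 of reprogramming, while the labels give no day for the BACL libraries, so the molecule and the state of the cells cannot be told apart. Whether CHIR99021 was added or left out is not given either, so the signs compare group labels and not the molecules.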

How the results depend on the processing

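The 4 example models kept direction and call in each of 11 alternatives; the 4 that leave out 1 of the libraries compared were part of the rule that chose them. The count of calls (2773) was 10609 with only the libraries compared, 10685 with only the 6 BACL libraries and 1134 when tested against a 2-fold change (glmTreat), and it ran from 1319 to 1570 with 1 library left out. There, the spread of a group with a lone library was taken from the other groups. With 3292 calls DESeq2 lay within 1.5 times of it, as did RLE (2764), no filter (2556), effective-length offsets (2795) and TPM (2543 and 2562). The count over 2-fold (2401) ran from 1285 to 1543 with 1 library left out, and was 2395 without models of equal counts, an alternative added after the data were seen. The count for the difference from A83-01 (2450) was 7153 with only the libraries compared (3331 higher and 3822 lower) and ran from 1495 to 2010 with 1 library left out. The percent of models over 2-fold changed that changed the same way in LB GPiPSC minus LB PF (22.4%) was 18.0% with only the libraries compared, and 27.0% and 25.0% on log2(TPM + 1) and log2(TPM + 0.1). For XR GPiPSC minus XR PF (22.4%) it was 26.7% and 24.7% on these scales, and for A83-01 (5.21%) it was 10.1% with only the libraries compared. For the lists, alternatives were added after the data were seen. With only the libraries compared, 1534 of 2347 PF-high models rose and 299 fell. In that fit 808 of 2634 GPiPSC-high models rose and 1205 fell, and of all 14784 models 5443 rose and 5166 fell. On log2(TPM + 0.1) 353 of 2847 GPiPSC-high models rose and 128 fell, where of all 17225 models 2185 rose and 377 fell. With 1 library left out, LB GPiPSC replicate 3 included, 453 to 812 PF-high models rose and 104 to 330 GPiPSC-high models fell.

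Deviations of same-numbered BACL-CHIR99021 and BACL control libraries correlated at 0.0096. As replicates lay little further apart than sampling noise, this value does not settle whether the replicate number pairs the samples. With the number as a replicate block in the fit of all libraries, 2737 models were called, 2431 over 2-fold and 2372 for the difference from A83-01. With the replicate block and only the libraries compared, these were 10455, 3338 and 6808. At 12300668 to 13755791 counts per library, models under about 0.190 CPM cannot be told from 0.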
